A study of Arabidopsis thaliana with 6 samples.

Results

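The RNA that precipitated with DCL4-8:FHA was compared between flowers and seedlings of Arabidopsis thaliana, ecotype Columbia. DCL4-8:FHA is a tagged missense form of DICER-LIKE 4 (DCL4), expressed from the promoter of DCL4 in plants homozygous for dcl4-2, a mutation of DCL4 itself. The comparison has 2 of the 6 libraries of the series, chosen by line and tissue in the labels, and 1 library per tissue. The other 4 libraries are DCL4-6:FHA, a second tagged missense form in dcl4-2, and untagged wild type (WT, Col-0) in the same tissues, and they serve here as background and as values set beside. All plants grew in soil in long days. The labels give no age for the plants and no number of plants per library.

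DCL4 is a ribonuclease that turns long RNA duplexes into small interfering RNAs, mostly 21 nt long. Some of its substrates are transcripts that fold back on themselves, such as long inverted repeats and the hairpins of young microRNA genes. Others come from TAS genes, whose noncoding transcripts are cleaved by a microRNA, copied into double strands by RDR6 and then cut in register from the cleaved end into trans-acting siRNAs. Trans-acting siRNAs of the TAS3 family restrain AUXIN RESPONSE FACTOR genes in leaves and flowers, whereas many of those from TAS1 and TAS2 act on transcripts of pentatricopeptide repeat genes.

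Coverage was deposited for 10 loci on TAIR10. The fold-back loci are the inverted repeats IR71 and IR2039 and the hairpin of miR822. The TAS loci are TAS1a, TAS1b, TAS1c and TAS2, which are cleaved through miR173, TAS3a and TAS3b, which are bound by miR390, and TAS4. The microRNAs that set the start of each TAS region are shown with bases 2 to 8, the seed, in capitals. These and all sequences below were read 5′ to 3′ from the RefSeq assembly TAIR10.1, on the strand of the annotated transcript for the TAS loci and miR822 and on the plus strand for the inverted repeats.
miR173-5p, chr3:8236161-8236182, plus strand: tTCGCTTGcagagagaaatcac
miR390a-5p, chr2:16061971-16061991, plus strand: aAGCTCAGgagggatagcgcc
miR822-5p, chr5:897287-897307, minus strand: tGCGGGAAgcatttgcacatg
miR822-3p, chr5:897067-897087, minus strand: tGTGCAAAtgctttctacagg

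The miR173 sites of the 4 miR173 loci differ little. Capitals mark bases that pair with the microRNA, and distances along these loci are counted from the point opposite its bases 10 and 11.
TAS1a, chr2:11722081-11722102, minus strand: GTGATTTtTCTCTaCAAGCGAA
TAS1b, chr1:18549660-18549681, minus strand: GTGATTTtTCTCaaCAAGCGAA
TAS1c, chr2:16537890-16537911, minus strand: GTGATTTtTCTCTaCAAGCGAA
TAS2, chr2:16539991-16540012, minus strand: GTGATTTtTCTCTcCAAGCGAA

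The stretches of 50 nt, the read length, that were used most often are shown for the loci whose profiles are compared below. In TAS1 and TAS2 capitals mark every other unit of 21 nt counted from the cleavage point. In TAS3b they mark a run of 21 nt that TAS3a also carries, and in miR822 they mark bases of the mature miR822-3p.
TAS1c, most used in flowers, chr2:16537647-16537696, minus strand: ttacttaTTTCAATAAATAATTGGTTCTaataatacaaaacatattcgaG
TAS1c, most used in seedlings, chr2:16537714-16537763, minus strand: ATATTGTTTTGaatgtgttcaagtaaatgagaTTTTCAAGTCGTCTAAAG
TAS2, both tissues, chr2:16539864-16539913, minus strand: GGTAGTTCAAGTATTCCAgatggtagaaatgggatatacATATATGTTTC
TAS1a, both tissues, chr2:11721924-11721973, minus strand: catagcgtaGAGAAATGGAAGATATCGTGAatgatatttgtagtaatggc
TAS3a, both tissues, chr3:5862123-5862172, plus strand: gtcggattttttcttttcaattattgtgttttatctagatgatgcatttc
TAS3b, flowers, chr5:20134497-20134546, plus strand: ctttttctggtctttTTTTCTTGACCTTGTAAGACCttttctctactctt
miR822, most used in flowers, chr5:897028-897077, minus strand: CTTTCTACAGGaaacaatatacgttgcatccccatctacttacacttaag
miR822, most used in seedlings, chr5:897228-897277, minus strand: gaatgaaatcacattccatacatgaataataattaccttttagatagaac
IR71, both tissues, chr3:1966783-1966832, plus strand: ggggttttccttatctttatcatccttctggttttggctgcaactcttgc

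The flower library held 11255618 reads and the seedling library 21771069, which is 1.93 times as many. Of these, 32074 reads in flowers and 35792 in seedlings lay at the 10 loci, where the number of reads is the coverage summed over a locus and divided by 50. The 10 loci thus took 0.285% of the flower library and 0.164% of the seedling library. Reads with several places in the genome, above all at IR71, count at each place here. With coverage divided by the number of places the totals were 29658 and 35269 reads. The WT libraries held 9 reads at these loci in flowers and 16 in seedlings. Scaled to the depth of the DCL4-8:FHA library, WT came to at most 0.0438% of the reads of a locus in flowers (9 loci) and at most 4.23% in seedlings (8 loci with at least 20 reads), the latter at TAS1b. The tables hold no other genes, so the tissue labels could not be set against marker genes.

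With 1 library per tissue there is no test and no spread between replicates. The 95% intervals below are exact binomial for a share and score intervals for a ratio of shares, and they cover counting error only. Since the reads carry no molecular identifiers, copies of a molecule may be counted more than once. The tissue, the plants sampled, the precipitation and the library cannot be told apart in any difference given here. More RNA of a locus in a tissue and more of it bound per tagged protein also cannot be told apart.

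The share of a locus in the 10-locus reads was 1.5-fold or more higher in flowers at 5 of the 9 loci with reads (55.6%) and 1.5-fold or more lower at 3 (33.3%). By the rule that the interval of the ratio excludes 1, 6 loci were higher (66.7%) and 3 were lower (33.3%). The added locus was TAS1c. The loci higher in flowers were IR71, IR2039, TAS1b, TAS1c, TAS3a and TAS3b, and those lower were miR822, TAS1a and TAS2. Both directions occurred in each class, among the fold-back loci and among the TAS loci. Since shares sum to 100%, a higher share at 1 locus lowers those of the others.

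**Figure D1:**
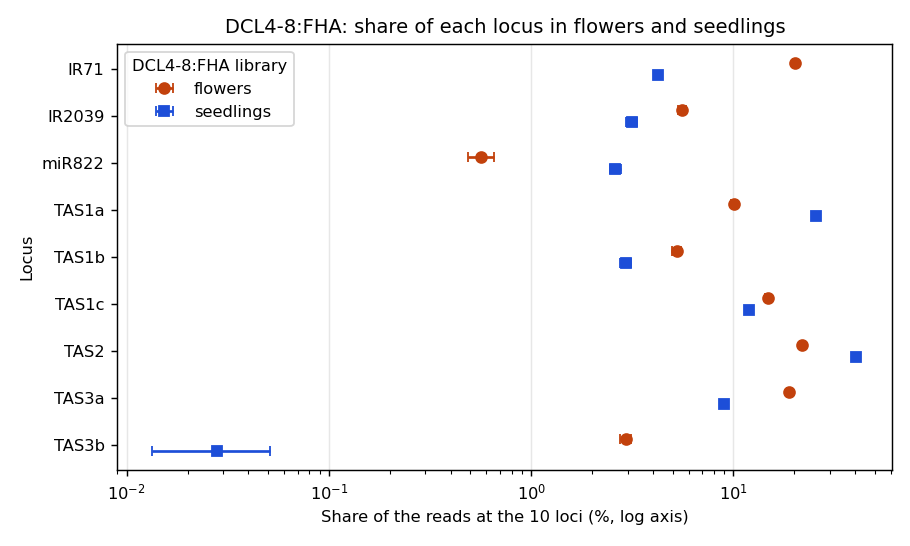
Share of the 10-locus reads at each locus (horizontal log axis, %) in the flower library (circles) and the seedling library (squares) of DCL4-8:FHA, with exact 95% intervals for counting error. TAS2 held the highest share in both libraries, 21.9% and 40.4%, and TAS3b stood furthest apart, at 2.94% and 0.0279%; TAS4, with 0 reads in both, is not drawn.

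Of the 10-locus reads, the miR173 loci held 51.98% in flowers (51.4 to 52.5). Their share in seedlings was 81.0% (80.6 to 81.5). For the miR390 loci it was 21.8% in flowers (21.3 to 22.2) against 8.97% in seedlings (8.67 to 9.27). Counted per length, so that a long locus weighs no more than a short one, the miR173 loci held 62.3% and 81.0%, and the miR390 loci 29.2% and 9.33%. Scaled to library size as RPM (reads scaled to the total of the whole library), the miR173 loci were at 1481 RPM in flowers and 1332 RPM in seedlings. The miR390 loci were at 621 RPM and 147 RPM, which is 4.21-fold more in flowers. The lower share of the miR173 loci in flowers thus came with a 1.11-fold higher RPM in flowers, while the RPM of the miR390 loci, and of IR71 at 8.23-fold, was higher by more.

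Among the miR173 loci, TAS2 and TAS1a, which gave the most reads in seedlings, held lower shares in flowers. TAS2 had 7009 reads in flowers and 14472 in seedlings. Its share was 21.9% against 40.4%, a ratio of 0.540 (0.528 to 0.554). As RPM, TAS2 was nearly level, with a ratio of 0.937 (0.910 to 0.964). TAS1a had 3240 reads in flowers and 9193 in seedlings. Its share was 10.1% against 25.7%, a ratio of 0.393 (0.379 to 0.408), or 2.54-fold lower in flowers. The RPM ratio of TAS1a was 0.682 (0.655 to 0.710). Every RPM ratio is 1.73 times the share ratio, because the 10 loci took that much more of the flower library.

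TAS1b and TAS1c held higher shares in flowers. TAS1b had 1679 reads in flowers and 1050 in seedlings, and its share was 5.24% against 2.93%, a ratio of 1.79 (1.65 to 1.92). TAS1c had 4743 reads in flowers and 4294 in seedlings, with shares of 14.8% and 12% and a ratio of 1.23 (1.19 to 1.28). With TAS2 left out of the total, the log2 ratio of TAS1c turned from 0.30 to -0.090. As RPM, the ratio was 2.14 (2.05 to 2.23) at TAS1c and 3.09 (2.86 to 3.34) at TAS1b. Where only the 4 miR173 loci were counted, TAS1c made up 28.4% in flowers and 14.8% in seedlings, and TAS1b 10.1% and 3.62%. TAS1a made up 19.4% and 31.7%, and TAS2 42.0% and 49.9%. The order of the 4 loci was TAS2, TAS1c, TAS1a, TAS1b in flowers and TAS2, TAS1a, TAS1c, TAS1b in seedlings, with intervals that did not overlap between neighbours in either order. Among these 4 loci, 2 held higher and 2 held lower shares in flowers.

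Both miR390 loci held higher shares in flowers. TAS3a had 6041 reads in flowers and 3200 in seedlings, with shares of 18.8% and 8.94% and a ratio of 2.11 (2.02 to 2.19). TAS3b had 943 reads in flowers and 10 in seedlings. Its share was 2.94% (2.76 to 3.13) against 0.0279% (0.0134 to 0.0514), a ratio of 105 (57.0 to 194). TAS3b made up 13.5% of the miR390 reads in flowers and 0.311% in seedlings. The 10 seedling reads cannot be set apart from background, because the floor of 3 reads in the shallow WT seedling library comes to 33.3 reads at this depth. In WT seedlings TAS3b had 0 reads.

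TAS4, which is cut through miR828, had 0 reads in both libraries. At these totals a count of 0 allows a share of up to 0.00935% in flowers and 0.00838% in seedlings.

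The fold-back loci stood far apart from one another. IR71 is an inverted repeat on chromosome 3 (1963599 to 1970598) that overlaps 2 protein-coding and 3 noncoding annotated genes. It had 6457 reads in flowers and 1517 in seedlings. Its share was 20.1% (19.7 to 20.6) against 4.24% (4.03 to 4.45), a ratio of 4.75 (4.50 to 5.01). Its 50 nt stretches occur at up to 3 places in the genome, and 42.8% of them are unique. With coverage divided by the number of places, it kept 4042 and 997 reads, its share was 13.6% against 2.83%, and the ratio was 4.82. Undivided, a read with several places counts at each, so the intervals given for IR71 are too narrow.

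IR2039 (chromosome 3, 16158977 to 16161019), which overlaps the protein-coding genes AT3G44570 and AT3G44580, had 1780 reads in flowers and 1122 in seedlings. Its share was 5.55% against 3.14%, a ratio of 1.77 (1.65 to 1.90). The hairpin of MIR822 (AT5G03552, chromosome 5, 897019 to 897355) had 181 reads in flowers and 933 in seedlings. The miR822 share was 0.564% (0.485 to 0.652) against 2.61% (2.44 to 2.78), a ratio of 0.216 (0.185 to 0.254), or 4.62-fold lower in flowers. Within the fold-back reads, IR71 made up 76.7% in flowers and 42.5% in seedlings, IR2039 21.1% and 31.4%, and miR822 2.15% and 26.1%. Here too IR71 reads with several places count at each, so these values overstate IR71 in both tissues.

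Summed over the class, the TAS loci held 73.8% (73.3 to 74.2) of the flower reads and 90.0% (89.7 to 90.3) of the seedling reads, a difference of -16.3 percentage points (-16.8 to -15.7). Most of that difference went with IR71. Without IR71 in the total it was -1.66 points, and counted per length, which gives the long IR71 little weight, it turned to 1.20 points higher in flowers. With the highest position of each locus in place of the sum it was -1.10 points. The class share is therefore no stable description of the 2 tissues, whereas the ratios of single loci above kept their direction under these settings. Leaving out IR71 and counting per length each multiply the ratios of single loci by a common factor, so they check that direction only weakly.

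The same contrast with DCL4-6:FHA is set beside these values. There TAS1a, TAS2, TAS1b, TAS1c, TAS3a, TAS3b and IR2039 had share ratios on the same side of 1, although the interval for TAS1c included 1 (1.41, 0.964 to 2.08). IR71 and miR822 stood on the other side, at 0.666 (0.635 to 0.697) and 1.27 (1.14 to 1.42). The DCL4-6:FHA libraries had 3243 and 4241 reads at the 10 loci, mostly of the fold-back class, and the difference between the lines was not tested.

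The second question is where along a locus the reads lay. Profiles were compared in bins of 50 nt, each as a share of its own locus, so a change in the level of the whole locus drops out. The overlap of the profiles, the sum over bins of the smaller of both shares, had a median of 89.9% over the 8 loci with at least 20 reads in each library. It was lowest at IR71 (79.4%), followed by TAS1c (83.1%) and IR2039 (85.3%). It was 89.6% at miR822, 90.1% at TAS1a, 90.8% at TAS2, and 92.3% at TAS1b and at TAS3a. Most of the coverage thus lay at the same places in both tissues. IR71 had 46.1 reads per bin in flowers and 10.8 in seedlings, the fewest of the 8 loci in seedlings, and sparse counts lower an overlap.

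Of 159 bins with enough reads, 60 (37.7%) differed in their share of the locus by the interval rule, 32 higher and 28 lower in flowers. As many, 60 (37.7%), differed by 1.5-fold or more. By the interval rule all 9 bins tested of TAS1c differed, 9 of 11 of TAS2, 5 of 6 of TAS3a and 6 of 9 of TAS1a. The counts were 1 of 9 at TAS1b, 1 of 4 at miR822, 8 of 26 at IR2039 and 21 of 85 at IR71. Reads of IR71 with several genome places were counted at each, so many bins of its arms hold the same reads. Its bins are thus not independent counts, here or within the 60 of 159. At every locus a read can also span neighbouring bins and count in part in each. Neighbouring bins that differ, as at TAS1c and TAS2, are thus not independent differences, and the intervals of bins are approximate. More reads let the interval rule show a smaller difference, and reads per bin were 98.8 and 61.7 at TAS1b against 334 and 689 at TAS2. By the fold rule, which sparse bins pass more easily, the bins were 36 at IR71, 10 at IR2039, 6 at TAS1c, 5 at TAS2, 3 at TAS1a and 0 at TAS1b, TAS3a and miR822.

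At the 4 miR173 loci the reads lay further from the cleavage point in flowers. Their mean distance, with a standard error from counting alone, was 164.8 ± 1.20 nt in flowers and 134.1 ± 1.09 nt in seedlings at TAS1c, a difference of 30.7 ± 1.62 nt. At TAS1a it was 165.2 ± 1.66 nt against 148.6 ± 0.88 nt, a difference of 16.6 ± 1.88 nt. The values at TAS2 were 159.7 ± 1.09 nt and 144.7 ± 0.59 nt, 15.05 ± 1.24 nt apart. At TAS1b they were 152.8 ± 1.97 nt and 142.0 ± 2.32 nt, 10.8 ± 3.04 nt apart. The shift was smaller than 2 units of 21 nt at each of these loci, and largest at TAS1c.

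The share of reads more than 200 nt from the cleavage point was also higher in flowers at these 4 loci. At TAS1c it was 32.9% (31.6 to 34.3) in flowers against 16.4% (15.3 to 17.5) in seedlings. At TAS1a it was 29.7% (28.1 to 31.3) and 20.9% (20.05 to 21.7). At TAS1b it was 24.8% (22.7 to 26.9) and 19.2% (16.8 to 21.7), and at TAS2 22.4% (21.5 to 23.4) and 14.4% (13.8 to 15). Beyond 100 nt the order was kept at TAS1c (72.7% against 60.8%), TAS1a (75.1% against 71.8%) and TAS1b (71.2% against 66.5%). TAS2 went the other way at that limit, with 78.3% (77.3 to 79.2) in flowers against 79.2% (78.5 to 79.9) in seedlings, intervals that overlap. With DCL4-6:FHA the values of TAS2 beyond 100 nt were 82.2% and 85.8%. The higher share beyond 200 nt occurred whether the share of the whole locus was higher in flowers (TAS1b, TAS1c) or lower (TAS1a, TAS2). With DCL4-6:FHA, the mean distance was 35.4 ± 13.6 nt longer in flowers at TAS1c, 6.39 ± 4.00 nt at TAS2 and 11 ± 21.3 nt at TAS1a, and TAS1b had too few reads. Those libraries are shallow at these loci, with 31 to 464 reads each, and their differences at TAS1a and TAS2 were within 2 standard errors of 0.

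**Figure D2:**
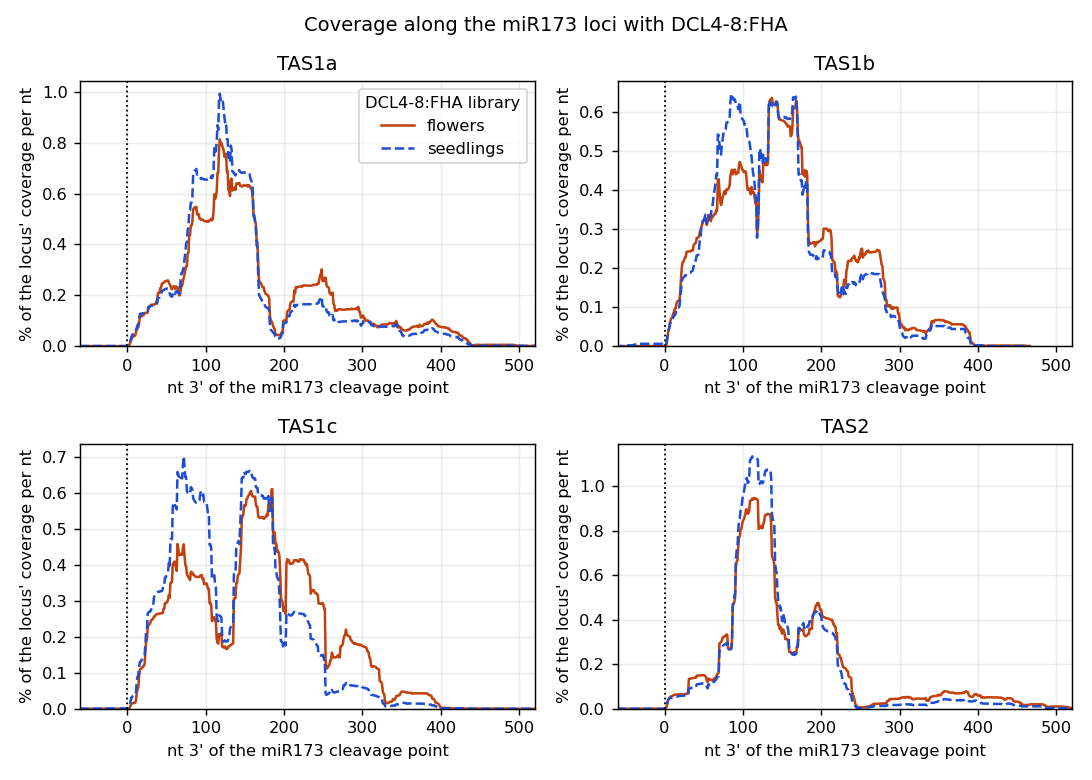
Coverage at each position of TAS1a, TAS1b, TAS1c and TAS2, as % of the coverage of the locus (vertical axis), against the distance in nt 3′ of the miR173 cleavage point (horizontal axis, dotted line at 0), in flowers (solid) and seedlings (dashed) of DCL4-8:FHA. The highest bin was the same in both tissues at TAS1a, and at TAS1b and TAS2 the highest bins of the tissues were neighbours. At TAS1c its centre lay about 187.5 nt from the cleavage point in flowers and 87.5 nt in seedlings. Beyond 200 nt the flower line lay above the seedling line over most positions, as the shares of 32.9% and 16.4% at TAS1c show.

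At TAS1c the bins nearer to the cleavage point held lower shares in flowers, and those further along held higher shares. The 3 bins nearest to the cleavage point with full coverage (16537737 to 16537886) held 12.4%, 18.2% and 17.7% in flowers against 15.6%, 28.6% and 20.8% in seedlings, counted away from the site. The next bin (16537687 to 16537736) held 23.3% against 21.3%. Beyond it the bins held 15.6% against 9.07%, 8.61% against 2.88%, 2.61% against 0.876% and 1.32% against 0.451%. The last 3 of these were 2.98-fold, 2.98-fold and 2.93-fold higher in flowers. The most used stretch moved in the same direction. The one shown above for flowers had 331 reads in flowers (6.98%) and 191 in seedlings (4.45%), and the one for seedlings, nearer to the cleavage point, had 295 (6.22%) and 297 (6.92%).

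At TAS2 the 6 bins furthest from the site with enough reads (16539483 to 16539782) were 1.49-fold to 2.38-fold higher in flowers. The bins around the peak (16539833 to 16539932) held 27.8% and 30.4% in flowers and 33.9% and 33.5% in seedlings. On the other side of the peak, nearer to the site, the bin from 16539933 to 16539982 was also higher in flowers. It held 6.04% against 4.79%, a ratio of 1.26 (1.12 to 1.42). At TAS1a the peak bin (11721938 to 11721987) held 31.9% and 37.9%, and the bins from 11721788 to 11721887 were 1.54-fold and 1.43-fold higher in flowers. TAS1b showed a single bin that differed (18549553 to 18549602), with 20.9% in flowers and 27.7% in seedlings. It was the highest bin in seedlings by a small margin, and it lay next to the highest bin in flowers.

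TAS3a is bound by miR390 at 2 sites, cleaved at the 3′ one, and its siRNA region lies 5′ of that point. Here capitals mark paired bases.
TAS3a 5′ site, chr3:5862099-5862119, plus strand: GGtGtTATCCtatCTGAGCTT
TAS3a 3′ site, chr3:5862343-5862363, plus strand: ttgtCTATCCCTCCTGAGCTa

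In TAS3a the reads lay nearer to the cleaved 3′ site in flowers. The mean distance was 161.0 ± 0.70 nt in flowers and 170.0 ± 0.88 nt in seedlings, a difference of -9.02 ± 1.12 nt. The first 50 nt after the 5′ site held 45.0% (43.7 to 46.3) of the flower reads against 52.8% (51.03 to 54.5) of the seedling reads. The bins from 5862190 to 5862339 were 1.12-fold, 1.31-fold and 1.48-fold higher in flowers, rising toward the 3′ site. The direction from the cleavage point is thus opposite to that at the miR173 loci, while in both families the flower reads lay further toward the 3′ end of the annotated transcript. With DCL4-6:FHA the difference at TAS3a was -10.7 ± 7.21 nt. In flowers TAS3b reads lay 136.6 ± 1.13 nt from its cleavage point, and the 10 seedling reads gave no mean worth comparing.

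TAS3a carries the 21 nt run shared with TAS3b right after a near copy of itself. In the stretch below the near copy is in lower case and the run in capitals, and they differ by G19A, counted from the first base of each.
TAS3a repeat, chr3:5862183-5862224, plus strand: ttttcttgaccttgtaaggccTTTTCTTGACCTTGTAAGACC

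The run made up 6.45% of TAS3a coverage in flowers and 6.03% in seedlings, a ratio with an interval of 0.906 to 1.27. The near copy made up 11.4% and 10.3%, with an interval of 0.983 to 1.26. Neither interval excluded an equal share in the tissues. The intervals take coverage divided by the read length as the number of reads. For such short stretches that is fewer than the reads that overlap them, so the intervals can be too wide. Whether these shares differ beyond counting error was thus not settled. In TAS3b the run lies inside the stretch that was most used in flowers, which had 188 of the 943 reads (19.9%).

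**Figure D3:**
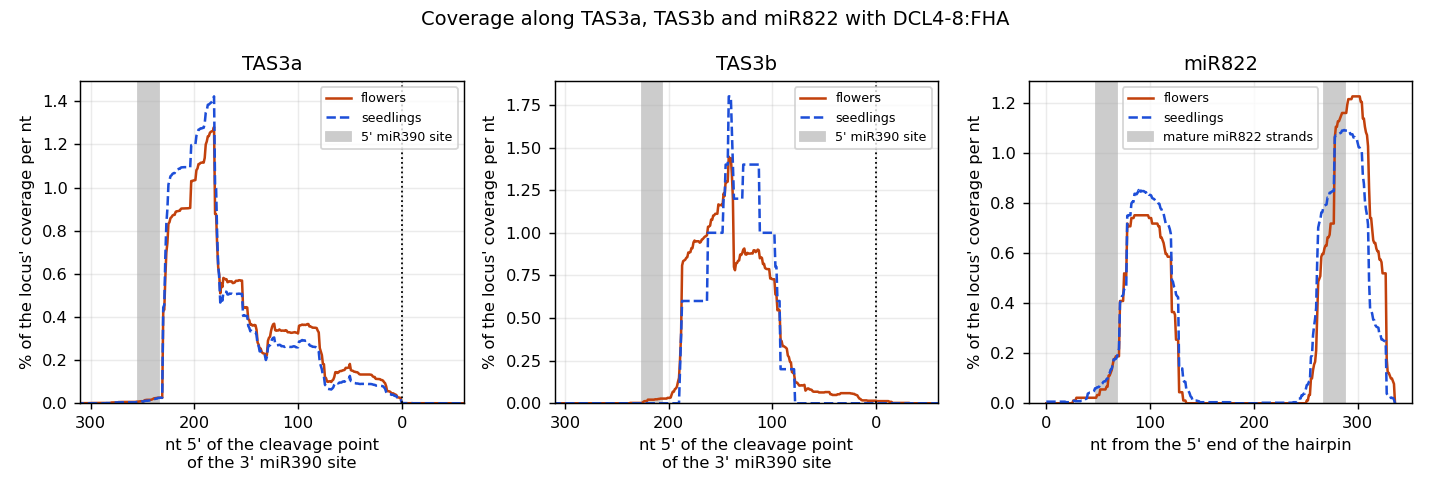
Coverage per position as % of the coverage of the locus (vertical axis) along TAS3a and TAS3b, against the distance in nt upstream of the 3′ miR390 cleavage point (drawn from 5′ to 3′), and along the miR822 hairpin, against the distance from its 5′ end, in flowers (solid) and seedlings (dashed). The grey bands are the 5′ miR390 site and the mature miR822 strands; the dashed TAS3b line rests on 10 reads, and at TAS3a the first 50 nt after the 5′ site held 45.0% in flowers and 52.8% in seedlings.

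The profile along the miR822 hairpin differed little for its few flower reads. The arm of miR822-3p held 61.3% (53.8 to 68.5) of the flower reads against 54.9% (51.6 to 58.1) of the seedling reads. The bases of mature miR822-3p held 19.2% and 20.1% of the coverage, and those of miR822-5p held 1.95% and 2.32%. The reads of the other arm lay next to miR822-5p rather than on it in both tissues. The bin at the 3′ end of the hairpin (897019 to 897068) was 1.35-fold higher in flowers, with 39.8% against 29.5%.

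At IR71 the profile differed most around the loop between its arms. Its arms, 1963723 to 1966967 and 1967205 to 1970450, share 98.9% of their bases, and 237 nt of loop lie between them. The 400 nt of each arm next to the loop, a length chosen after the profile was seen, together held 18.0% (17.1 to 18.97) of the flower reads and 32.7% (30.4 to 35.2) of the seedling reads. All 12 bins that were lower in flowers lay between 1966449 and 1967548, in or near the loop. The 9 bins that were higher lay elsewhere in the arms, between 1964499 and 1969698, and reads that match both arms count in each. The bin at the border of the loop and the second arm (1967199 to 1967248) held 2.13% and 4.64%.

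With coverage divided by the number of genome places, the last 400 nt of the first arm held 11.2% in flowers and 20.7% in seedlings. The first 400 nt of the second arm then held 10.3% and 16.6%. On the RPM scale, a level rather than a share, coverage next to the loop was still higher in flowers, at 6.85 RPM against 1.61 RPM in the first arm. With DCL4-6:FHA the shares next to the loop stood the other way round, 27.9% (25.6 to 30.4) in flowers against 21.6% (20.02 to 23.2) in seedlings. The difference between the lines was not tested.

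The arms of IR2039, of 90.7% identity, aligned in 1 stretch across its centre and were split at the midpoint. A loop was thus not measured. At the centre, the bins from 16159927 to 16159976 and from 16159977 to 16160026 held 0 reads in flowers. In seedlings they held 0.5 and 3.82 reads. The first arm of IR2039 held 54.8% of the reads in flowers and 54.7% in seedlings, so the balance of the arms was nearly equal in both tissues. Within the arms 3 bins were higher and 5 lower in flowers. The widest difference was at 16160227 to 16160276, with 2.59% in flowers and 6.01% in seedlings.

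**Figure D4:**
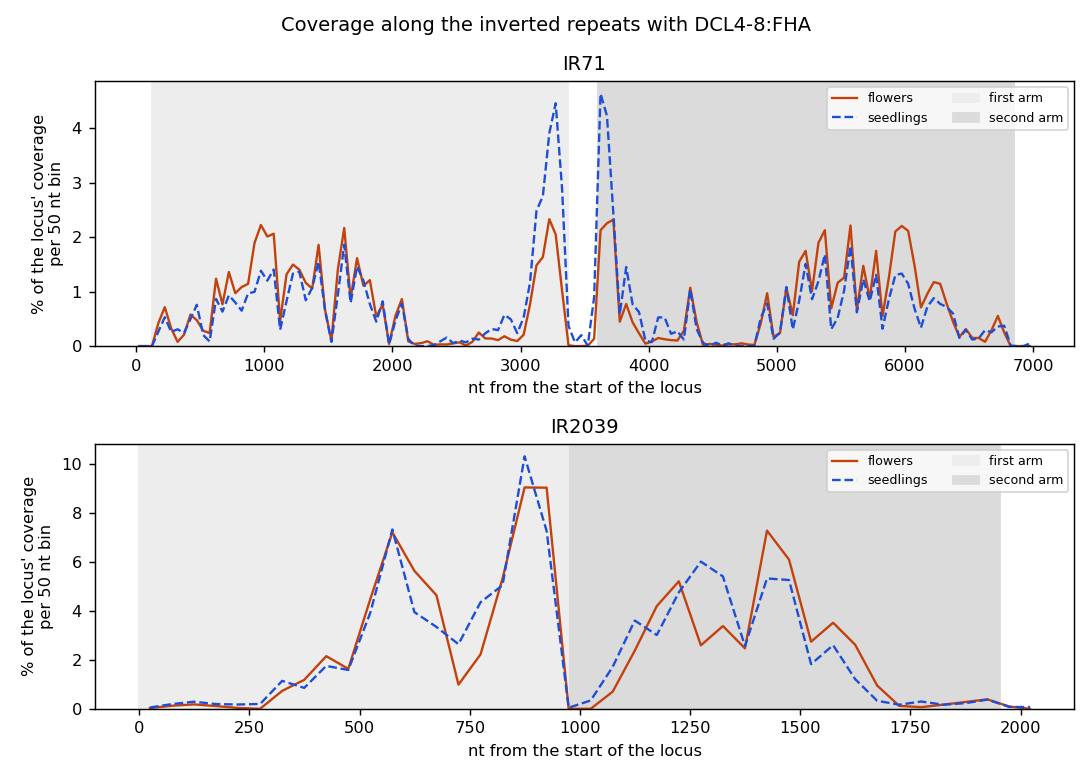
Coverage in bins of 50 nt as % of the coverage of the locus (vertical axis) along IR71 and IR2039, against the distance in nt from the start of the locus, in flowers (solid) and seedlings (dashed), with the arms shaded. At IR71 the seedling line stands above the flower line on both sides of the gap that is the loop, where the bin at its 3′ border held 4.64% in seedlings and 2.13% in flowers, and below it over much of the outer arms.

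The last comparison is at the level of single read positions. A rise in coverage followed by a fall 50 nt on marks the place of ungapped reads of full length. Such paired edges placed 52.8% to 91.8% of the reads at the 8 loci with enough reads, and the rest could not be placed. At TAS3a all 10 of the 10 most used starts were shared between the tissues, and the stretch shown above held 1215 reads in flowers (20.1%) and 669 in seedlings (20.9%). The most used stretch was the same in both tissues at 6 loci, IR71, IR2039, TAS1a, TAS1b, TAS2 and TAS3a. At IR71 another stretch tied with it in flowers. At TAS1c and miR822 the most used stretch differed. Of the 10 most used starts, 8 were shared at TAS1a and TAS1c, 7 at TAS1b and TAS2, 6 at miR822, 5 at IR2039 and 3 at IR71. At IR71 a read that matches both arms gives a start in each, so its starts are partly copies of one another.

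**Figure D5:**
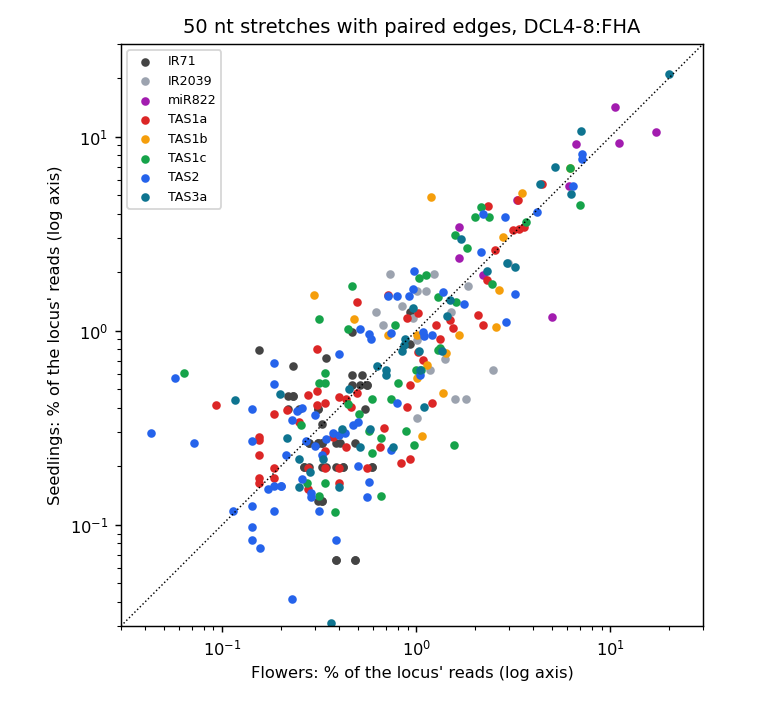
Share of the reads of a locus at each 50 nt stretch with paired edges in flowers (horizontal log axis, %) and seedlings (vertical log axis, %) of DCL4-8:FHA, for the 295 stretches at 8 loci found in both tissues with at least 20 reads in all; the dotted line marks equal shares. Most points, 208 of 295 (70.5%), lay within 2-fold of that line, and stretches without paired edges in a tissue are not drawn. At IR71, reads that match both arms are drawn in each.

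Keeping stretches found in both tissues leaves out those that differ most. With at least 20 reads in 1 tissue, 5 stretches had no paired edges in the other. At TAS1a the start at 11721966 had 108 reads in seedlings, and at IR71 the start at 1967302 had 51 reads in flowers. An absent pair of edges is not a count of 0, since edges of neighbouring reads can cancel. Over all starts, the overlap of both tissues, as the sum of the smaller of both shares of placed reads, was lowest at IR71 (47.5%) and IR2039 (53.99%). It was highest at TAS3a (86.1%) and TAS2 (80.1%).

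The leading frames of the TAS2 starts were the same in flowers and seedlings. Frames were numbered by the lower genome coordinate of a stretch, counted from the miR173 cleavage point in steps of 21 nt. Of the 21 frames, 2 held 40.3% of the placed reads in flowers and 39.8% in seedlings. An even spread would give 4.76% for each frame. The leading frames were 7 and 11 in both tissues. TAS2 lies on the minus strand, so these numbers are not distances of 5′ ends from the cleavage point. The same 4 starts made up 35.9% of the placed reads in each tissue, nearly all of what these frames held, so this is no measure of register along the region. The pairs of these starts that share a frame lay 21 nt apart (16539860 and 16539881) and 84 nt apart (16539780 and 16539864), the latter being 4 units of 21 nt. Starts of the same frame are a multiple of 21 nt apart by definition, and pairs across the frames are not. At TAS3a a single frame held 27.7% in flowers and 27.9% in seedlings. At TAS1a the leading frame was the same in both tissues, with 13.99% and 16.8%, while the leading frame differed at TAS1b and TAS1c. The leading frame of TAS3a had 4 starts in flowers and 3 in seedlings, and the same limit holds there.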

How the data were processed

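Per the labels' protocols, RNA was precipitated from tagged and untagged plants and sequenced as single-end reads of 50 nt. HISAT2 2.0.5, bedtools 2.25.0 and TAIR10 appear per the submitters' processing notes, which state no role for them. The authors deposited signal, the coverage at each position of 10 loci in RPM. What was done with strand and with reads of several places is not stated there. Files name the seedling libraries seeds, and the labels' name is used here.

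Each value was a whole multiple of 1 step per library, to within 1.61e-08 of a read, which gave library totals. No count model was used on coverage. Positions were read as counted from 1, since matching bases of the IR71 arms (1127 pairs) then differed least: by 0.0123 of their coverage in flowers and 0.0201 in seedlings, against 0.0347 and 0.0466 counted from 0. The equal coverage of the arms also means that reads with several places were counted at each. The annotated bounds of 8 loci lie 1 base after the ranges given.

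Intervals came from scipy 1.17.1 and statsmodels 0.14.6, arms from blastn 2.17.0, and the interval calculation was tested on simulated data. Of the rule for named loci, all 10 are given, with 50 nt bins that were highest or changed most in each library. Bins were tested with at least 20 reads. Alternatives were per-length shares, coverage divided by places, the maximum, WT taken off, totals without IR71 or TAS2, RPM levels, a 1.5-fold rule and other bins. The members, lists and comparisons were chosen with earlier results of these data known.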

Additional observations from a re-analysis of the deposited data

Results flagged for a closer look

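The tissue difference of 2 loci had opposite signs in the lines. On the log2 scale, the share ratio of flowers over seedlings at IR71 was 2.248 with DCL4-8:FHA and -0.59 with DCL4-6:FHA. At miR822 it was -2.21 with DCL4-8:FHA and 0.35 with DCL4-6:FHA. Each value rests on 1 library per line and tissue, and the difference between the lines was not tested.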

How the results depend on the processing

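The counts of 6 loci with a higher and 3 with a lower share in flowers stayed at 5 or 6 and at 3 under every alternative run. The members changed where TAS2 was left out of the total, since TAS1c then stood among the 3 lower loci with miR822 and TAS1a. Of 61 ratios of single loci under 7 alternatives, 60 kept their direction, but 41 lay outside the interval of the ratio given in the text and 19 within it, apart from the 1 that reversed. The exception was TAS1c, whose log2 ratio of 0.30 became -0.090 with TAS2 left out of the total. Per-length shares, totals without IR71 or TAS2 and RPM each multiply the ratios of all loci by a common factor. Under them only a ratio near 1 can turn, so the 61 ratios are not separate checks of direction. The difference in the TAS share was -16.3 percentage points. It became 1.20 counted per length, -11.6 with coverage divided by places, -1.10 with the maximum over positions and -1.66 without IR71. The median profile overlap of 89.9% ran from 89.1% to 91.2% with other bins. A minimum of 100 reads kept the same loci and so could not change it. Over the same bins Pearson's r, another measure of likeness, had a median of 0.964. No paired analysis was possible because each line and tissue has 1 library and the labels give no replicate numbers. Depth limits miR822 in flowers, with 181 reads, and TAS3b in seedlings, with 10.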
